A study of Mus musculus with 6 samples.

Results

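The genes of metal handling described here, 6 in number, were followed through droplet single-cell RNA sequencing of the genioglossus, which protrudes the tongue: the metallothioneins Mt1, Mt2 and Mt3, the zinc importer Slc39a14, the zinc exporter Slc30a1 and the zinc sensor Mtf1. They were chosen by gene symbol and not by their values, and all 6 of 6 symbols were found among the 33696 genes of the count matrices. The study took primary tissue of male mice from a control group and from a group labelled OSA-4W, where OSA stands for obstructive sleep apnea, in which the upper airway closes again and again in sleep. The groups hold 3 libraries each, and all 6 carry the label of batch 1. Muscle was collected at week 4 after the modelling, and the labels name no strain, age, genotype or other agent for either group, nor how the model was made. The 4 matrices used are those of control replicate 2 and all 3 OSA replicates, while control replicates 1 and 3 were not analysed here. Whether libraries came from separate animals is not labelled, and p-values then measure only a spread between libraries that may be technical. That spread comes from the 3 OSA libraries, and the single control library was assumed to vary like them.

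Metallothioneins are small cysteine-rich proteins that bind zinc and copper and buffer the free metal inside the cell. Mtf1 is a transcription factor that binds zinc and then metal response elements, short DNA motifs in front of Mt1, Mt2 and Slc30a1, and Mt1 and Mt2 also respond to glucocorticoids, inflammation and low oxygen in many tissues. Slc30a1 moves zinc out of the cell across the plasma membrane, Slc39a14 brings in zinc, iron and manganese, and Mt3 is known mainly from the nervous system.

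The sequences in front of the metallothionein genes are shown because Mt1 and Mt2 had nearly the same pattern over classes and libraries (Pearson's r = 0.976 over 60 sums, a description) and Mt3 another one (r = 0.508 with Mt1). Mt4, Mt3, Mt2 and Mt1 lie next to each other on the plus strand of chromosome 8. The stretches run 5′ to 3′ up to the first annotated exon base (RefSeq promoters, build GRCm38.p6, not the build of the counts), at chr8:94178839-94179081 for Mt1, chr8:94172368-94172617 for Mt2 and chr8:94152357-94152606 for Mt3. Capitals mark the metal response element cores TGCACNC and TGCGCNC on either strand.
Mt1: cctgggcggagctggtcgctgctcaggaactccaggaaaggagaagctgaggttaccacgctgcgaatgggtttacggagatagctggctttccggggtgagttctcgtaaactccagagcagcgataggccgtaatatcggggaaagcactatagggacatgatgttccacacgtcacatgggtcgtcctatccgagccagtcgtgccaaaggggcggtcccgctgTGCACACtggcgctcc
Mt2: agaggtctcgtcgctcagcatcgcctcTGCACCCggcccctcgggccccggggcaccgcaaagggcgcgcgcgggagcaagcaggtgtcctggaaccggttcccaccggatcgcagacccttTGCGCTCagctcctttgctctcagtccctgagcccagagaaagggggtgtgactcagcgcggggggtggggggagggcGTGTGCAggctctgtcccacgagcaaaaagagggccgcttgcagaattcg
Mt3: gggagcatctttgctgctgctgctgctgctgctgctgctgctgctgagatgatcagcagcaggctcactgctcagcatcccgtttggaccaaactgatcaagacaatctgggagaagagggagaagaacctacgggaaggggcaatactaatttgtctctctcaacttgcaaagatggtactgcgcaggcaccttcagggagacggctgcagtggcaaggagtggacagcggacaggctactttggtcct
Mt1 held 1 core in 243 bases and Mt2 held 3 in 250 bases, and 1 of the Mt2 cores shares bases with the hypoxia core GCGTG. In the 250 bases in front of Mt3 neither core was found. Among 32851 RefSeq promoters searched over 250 bases, 21.4% held at least 1 of the cores and 1.26% held 3 or more. The hypoxia cores ACGTG and GCGTG occurred once each in front of Mt1, against 16.6% and 28.2% of all promoters. The antioxidant core TGANNNNGC occurred once in front of Mt2 and at 2 places in front of Mt3, against 35.2% of all promoters. Slc30a1 had 1 metal response core, Mt4 had 1 and Mtf1 had 0. RefSeq's table held no entry matched to Slc39a14. All motifs were searched on both strands, and the bases after the gene start were not searched. The annotated start decides which bases were searched. The counts therefore do not give the number of metal response elements of a gene, nor rank Mt1 against Mt2.

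The 4 matrices held 70217449 to 82184913 UMIs (counted RNA molecules), with medians of 3889 to 4879 per barcode, and 54455 cells were kept, 12231 to 15217 per library. Libraries shared 0.33% to 0.468% of the barcodes of the smaller list. Cells were grouped by transcripts alone into 20 classes named by marker genes, written here with "-like", and 15 classes had at least 30 kept cells in every library. The tissue is labelled as skeletal muscle cells, but the myofibre-like class held 93, 144, 372 and 124 cells in control replicate 2, then OSA replicates 1, 2 and 3. The satellite-like class of muscle stem cells held 263, 308, 272 and 315. Endothelial-like cells numbered 4101 to 7144 and fibroblast-like cells 2197 to 3507. A level below is the number of UMIs of a gene per 1000000 UMIs of its class in that library, written CPM, and levels are not compared between genes, which differ in how well their transcripts are captured. Mt1 and Mt2 are close paralogs, and how reads matching both were counted is not given in the sources used here. Where 4 values are listed, they stand for control replicate 2, then OSA replicates 1, 2 and 3.

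Mt1 and Mt2 were transcripts of the stroma, the nerve sheath and the muscle stem cells. Over all cells, Mt1 stood at 3892, 4088, 6713 and 7401 CPM and Mt2 at 3885, 3758, 7647 and 7096. Mt1 was highest in the myelinating Schwann-like class, with 8721, 11915, 15162 and 15651, and in the fibroblast-like class, with 8449, 9854, 13773 and 13695. Both classes held the control library below every OSA library. Tenocyte-like cells, the tendon fibroblasts, gave 5011, 6361, 15629 and 10597. Satellite-like cells gave 6066, 4789, 7098 and 6048 and macrophage-like cells 4602, 3292, 6088 and 4283, and in both the control lay inside the range of the OSA libraries. The low end was formed by endothelial-like cells at 400, 599, 1004 and 1222, erythroid-like cells at 488, 580, 973 and 946, myofibre-like cells at 383, 429, 923 and 1122, and T and NK-like cells at 323, 469, 1022 and 892. In the order of the mean Mt1 level the ranges of all neighbouring classes overlapped but for 1 step, between non-myelinating Schwann-like cells, at 2350 to 3831, and lymphatic endothelial-like cells, at 575 to 1849. Mt2 had its highest levels in the fibroblast-like class, with 9216, 9779, 16566 and 14293, and stood at 9228, 6736, 11561 and 8064 in satellite-like cells.

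**Figure D1:**
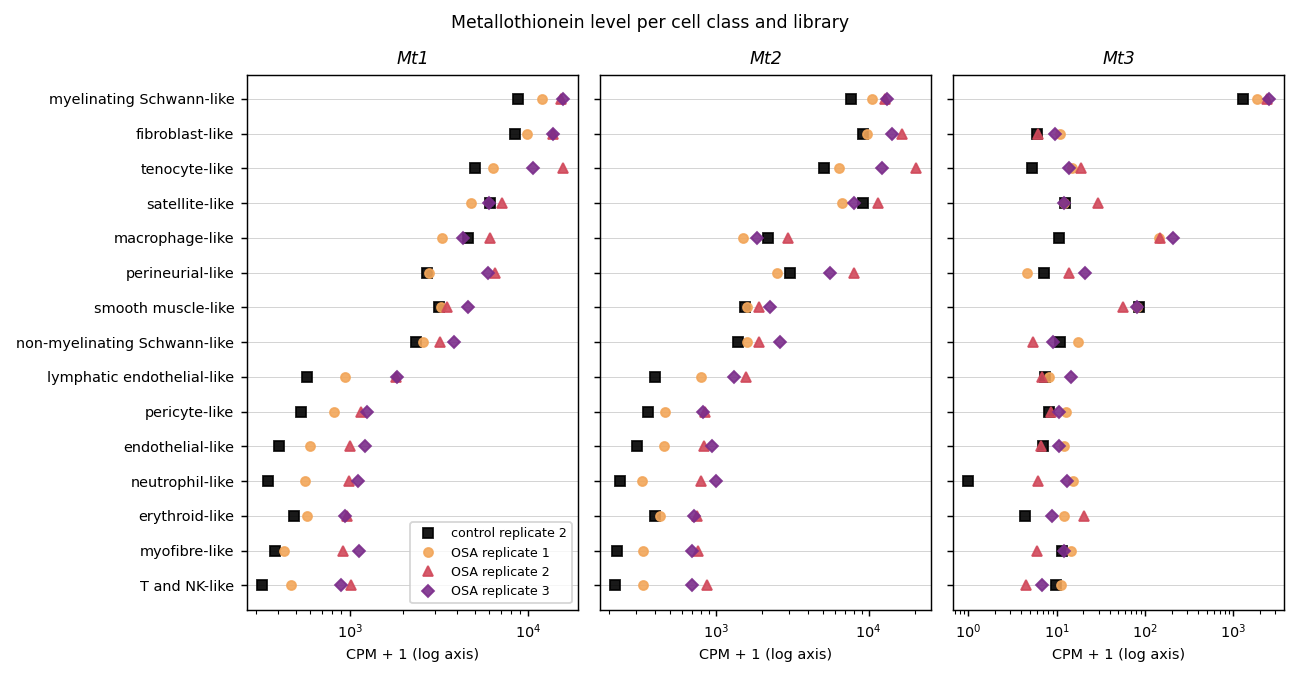
Levels of Mt1, Mt2 and Mt3 (CPM of the class plus 1, log axis) in each of the 15 tested classes, with 1 point per library, black for the control and coloured for OSA replicates 1, 2 and 3. Mt1 and Mt2 span fibroblast-like and myelinating Schwann-like classes at the top to T and NK-like and myofibre-like classes at the bottom, while Mt3 stands at 1277 to 2558 in the myelinating Schwann-like class and at 205 or less in the others.

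Mt1 and Mt2 stood higher in the OSA libraries than in the control in most classes, but the test called few of these differences. On the printed scale the control level of Mt1 lay below all 3 OSA libraries in 13 of 15 classes, and that of Mt2 in 12 of 15. After TMM scaling, which the test uses, both counts were 11 of 15, where 26.8% of all gene-by-class tests had the control below every OSA library. The median log2 change, OSA minus control, was 0.91 for Mt1 and 0.83 for Mt2 over the 15 classes, and the median over all genes tested was between 0.01 and 0.04 in every class but the neutrophil-like one, where it was 0.22. The low-count filter kept Mt1 and Mt2 in all 15 classes, Slc39a14 and Mtf1 in 13, Slc30a1 in 12 and Mt3 in 11. Of these 79 member-by-class tests, 3 passed an adjusted p of 0.05 (quasi-likelihood test of edgeR, Benjamini-Hochberg adjustment over all genes of the class), against 0.4% of all gene-by-class tests. These were Mt1 and Mt2 in T and NK-like cells and Mt3 in macrophage-like cells. An unadjusted p under 0.05 was reached by Mt1 in 9 classes and by Mt2 in 7, against 6.63% of all gene-by-class tests.

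OSA replicate 1 gave the lowest Mt1 and the lowest Mt2 of the 3 OSA libraries in 15 of 15 classes, where 32.7% of all gene-by-class tests had that order. The classes of a library share its preparation, so they are not separate observations of this order. Over all genes the counts of OSA replicate 1 also differed least from those of the control, with a chi-square of 47.1 per degree of freedom against 76.7 to 280.5 for the other pairs of libraries. Leaving out the library with the lowest Mt1 and Mt2 raises their fitted change by construction. Calls made without it are therefore no separate support for a change. The counts on leaving out OSA replicate 2 or OSA replicate 3 are given in the section on processing. Without OSA replicate 1, 14 member-by-class tests passed in place of 3. They included Mt1 in endothelial-like cells (log2 change 1.57 ± 0.28 SE, edgeR adjusted p = 0.0147) and Mt2 in lymphatic endothelial-like cells (1.88 ± 0.32, edgeR adjusted p = 5.18e-06). With all libraries these changes were 1.31 ± 0.45 (adjusted p = 0.929) and 1.64 ± 0.35 (adjusted p = 0.168).

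In T and NK-like cells both genes rose. Mt1 stood at 323, 469, 1022 and 892 CPM, from 148, 136, 290 and 461 UMIs, so that the control was below each OSA library. Its 95% Poisson intervals, which cover counting error only, were 273 to 379 in the control and 394 to 555 in OSA replicate 1, the nearest library. The OSA mean was 794 ± 289 (SD, n = 3). The log2 change was 1.17 ± 0.29 (edgeR adjusted p = 0.00367). Mt2 stood at 218, 335, 878 and 695, and its log2 change was 1.42 ± 0.31 (edgeR adjusted p = 0.000694). In this class 3.33% of 6638 genes were called, and 2.06% were called higher. The class held 108, 66, 52 and 147 cells. B and plasma-like cells, with 76, 26, 25 and 16 cells too few for a test, had Mt1 at 790, 358, 753 and 1325, the control inside the OSA range, and Mt2 at 1245, 409, 596 and 814, the control above each OSA library.

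Within the T and NK-like class the cluster led by Trbc2, Grap2 and Skap1, with 67, 37, 17 and 81 cells, had Mt1 at 304, 471, 747 and 954. The cluster led by Gzma, Ccl5 and Nkg7, with 38, 10, 11 and 13 cells, had Mt1 at 350, 689, 612 and 845. The control was lowest in both. The remaining cluster, led by Scart1 and Trdc, held 3 control cells and 19, 24 and 53 OSA cells, and gave 427, 345, 1371 and 807. The share of cells with a Mt1 UMI, after thinning each cell to 2000 UMIs, was 49%, 59.6%, 69.2% and 84.9%, and it was 68.5%, 81.8%, 92.3% and 87.1% unthinned. The thinning left out 8, 9, 0 and 28 shallower cells. Erythroid-like cells showed one in 53.2%, 53.5%, 78.6% and 71.1% of thinned cells and endothelial-like cells in 46.8%, 58.8%, 79% and 82.9%, at median depths of 3357 to 4380 and 2665 to 3557 UMIs against 3428 to 5048 in T and NK-like cells. The shares in T and NK-like cells lay close to those of these other classes with low Mt1. Such shares do not tell low expression in the cell from free RNA. Fibroblast-like cells showed a UMI in 97.3% to 99.6% of thinned cells. The summed level of the 9 fibroblast markers in T and NK-like cells, a measure of RNA from other cells, was 1151, 707, 1019 and 1151 CPM, while Mt1 in the fibroblast-like class itself stood at 8449, 9854, 13773 and 13695. The part of RNA from other cells in the Mt1 and Mt2 calls was not tested. Of these 9 markers, 1 was at 0 in OSA replicate 1 and none in the other libraries.

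The 2 calls in T and NK-like cells depended on the processing. With called doublets kept in the sums, Mt1 stood at 502, 473, 1386 and 904, the control was no longer the lowest, and the adjusted p was 0.237 for Mt1 and 0.593 for Mt2 in edgeR. DESeq2 gave log2 changes of 1.16 and 1.41 with adjusted p of 0.705 and 0.688. Outside this class DESeq2 passed Mt1 in pericyte-like cells, which edgeR did not call (log2 change 1.09, DESeq2 adjusted p = 0.0189), and there edgeR called 0.0343% of all genes. Leaving out OSA replicate 2 gave Mt1 an edgeR adjusted p of 0.0621, and leaving out OSA replicate 3 gave Mt2 0.235.

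**Figure D2:**
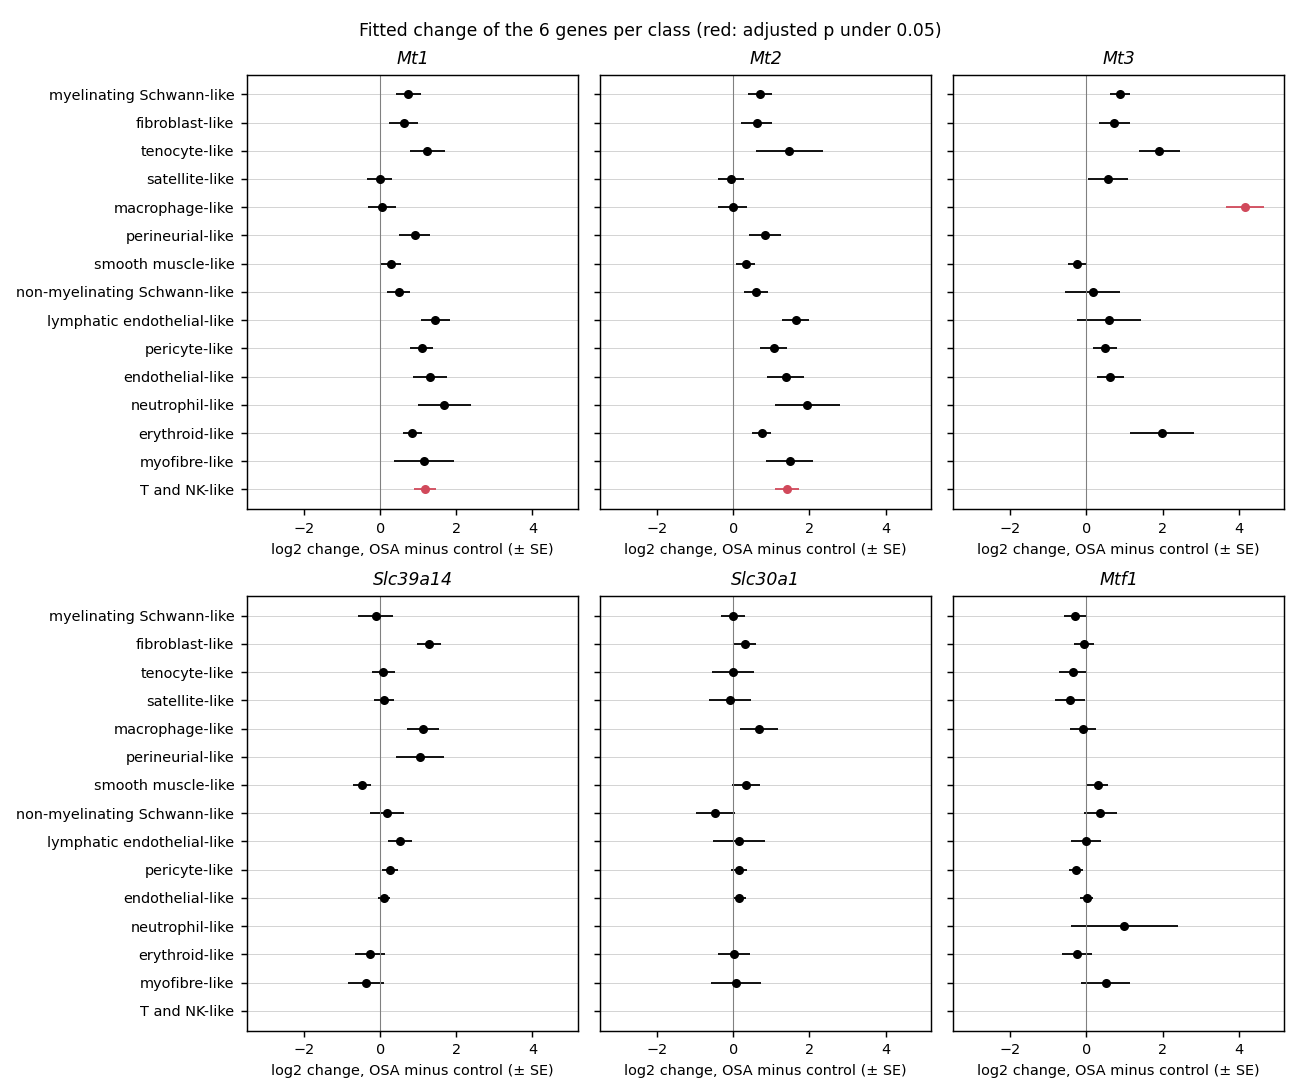
Log2 change, OSA minus control, of each of the 6 genes in each tested class, with bars of 1 SE from edgeR's quasi-likelihood fit and red points for an adjusted p under 0.05. The 3 red points are Mt1 and Mt2 in T and NK-like cells and Mt3 in macrophage-like cells, and Mt1 and Mt2 lie right of 0 in most classes.

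In macrophage-like cells Mt1 and Mt2 were not called in the class as a whole. The log2 change of Mt1 was 0.04 ± 0.37 (edgeR adjusted p = 0.973) and that of Mt2 was -0.02 ± 0.37 (adjusted p = 0.987). The OSA effect on Mt1 was lower in macrophage-like cells than in T and NK-like cells by a log2 difference of -1.08 ± 0.22 (edgeR interaction term with the library as a block, adjusted p = 0.00442, with 1.37% of 11096 genes called). For Mt2 the difference was -1.36 ± 0.27 (adjusted p = 0.00304). Mt2 also differed from lymphatic endothelial-like cells by -1.67 and from myofibre-like cells by -1.53, and Mt1 from tenocyte-like cells by -1.14. Of the 84 tests of a member in macrophage-like cells against another class, 11 passed, where 1.04% of all genes did. All 84 tests use the same macrophage-like sums, so the 11 are not separate observations. The difference between fibroblast-like and endothelial-like cells was called in edgeR for 0 of 6 members, of which 3 had an unadjusted p under 0.05, and for 0% of 17908 genes.

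The composition of the macrophage-like class differed between the libraries. The subset marked by Folr2 and Cd209 genes, resident macrophages, made up 74.4%, 23.6%, 29% and 9.24% of the class. Within it Mt1 stood at 4248, 5330, 9386 and 8523, with the control below every OSA library, and the log2 change was 0.89 ± 0.31 (edgeR adjusted p = 0.325). In that subset 23% of genes had the control below every OSA library, and 0.366% of 8464 genes were called. Mt2 gave 2134, 2892, 4634 and 4023 there. Cells with high MHC class II genes had Mt1 at 5250, 3812, 6222 and 6639, the control inside the OSA range. The subset led by Gpnmb, Mmp12 and Spp1, absent among the kept control cells, had Mt1 at 2143, 4451 and 4323 in the OSA libraries. The remaining clusters, with 7, 176, 181 and 1092 cells, had it at 3202, 2741, 3352 and 3577.

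In fibroblast-like cells the median cell carried 66.6, 68.6, 114.6 and 101.5 Mt1 UMIs per 10000, and the tenth of cells with the most Mt1 UMIs held 29.2% to 36.2% of the Mt1 of the class. The levels of control replicate 2 and OSA replicate 1 lay close together and apart from the other libraries, and the log2 change was 0.62 ± 0.39 (edgeR adjusted p = 1). In all 4 fibroblast clusters Mt1 was lower in the control, with 8814, 9275, 13157 and 11269 in the cluster led by Smoc2 and Cxcl14 and 7639, 9963, 15483 and 14919 in the cluster led by Sfrp4. The cluster led by Saa3 held only 5 control cells, and the clusters come from the same libraries, so they are not separate observations. Of the 16745 genes tested in this class edgeR called 0%, an unadjusted p under 0.05 was found for 695, and 37 passed in DESeq2, among them Slc39a14. Myelinating Schwann-like cells, which wrap axons in myelin, had medians of 72.7, 107.6, 130.6 and 139 Mt1 UMIs per 10000, and the class change was 0.74 ± 0.32 (edgeR adjusted p = 1, with 0.23% of genes called). Without OSA replicate 3 that change was 0.63 ± 0.12 (adjusted p = 0.000178), and without OSA replicate 1 or OSA replicate 2 the edgeR adjusted p was 0.9998 in both. Endothelial-like cells had medians of 2.4, 3.9, 7.6 and 9.1.

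In endothelial-like cells the fibroblast markers moved with Mt1. Their summed level was 651, 823, 969 and 1287 CPM against Mt1 levels of 400, 599, 1004 and 1222. The same sum in neutrophil-like cells was 1374, 1302, 1503 and 1930, and in macrophage-like cells 710, 935, 1212 and 1347. The part of RNA from other cells in the Mt1 differences of these classes was not tested.

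The share of Mt2 in the Mt1 and Mt2 UMIs differed between classes. Mt2 made up 32.4%, 31.4%, 32.8% and 30.3% in macrophage-like cells and 33.1%, 33%, 35.4% and 32.8% in smooth muscle-like cells. In satellite-like cells the share was 60.3%, 58.4%, 62% and 57.1%, and in fibroblast-like cells 52.2%, 49.8%, 54.6% and 51.1%. The ranges of the macrophage-like and satellite-like classes did not overlap. Endothelial-like cells lay between them, at 43%, 43.1%, 45.3% and 43.5%, and T and NK-like cells at 40.3%, 41.6%, 46.2% and 43.8%. Exact Clopper-Pearson 95% intervals, which cover counting error only, ran from 34.2% to 46.7% for control T and NK-like cells and from 31.5% to 33.3% for control macrophage-like cells. OSA replicate 2 had the highest share in all 6 of these classes. Keeping called doublets moved no share in a tested class by more than 4.14 percentage points.

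**Figure D3:**
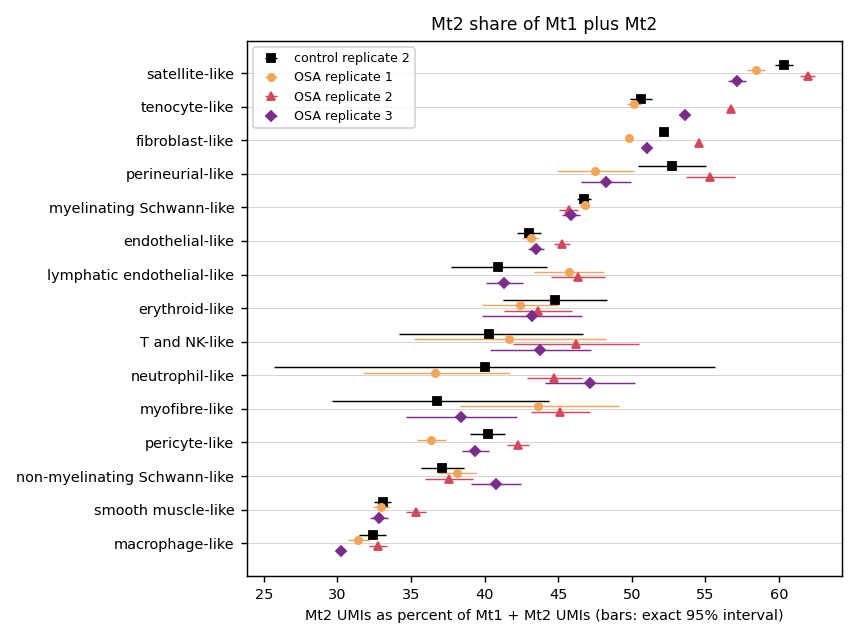
Mt2 as a percentage of Mt1 plus Mt2 UMIs in each tested class, with 1 point per library and exact 95% binomial intervals for counting error. Macrophage-like and smooth muscle-like classes sit near 30% to 35% and the satellite-like class between 57.1% and 62%, and the control lies inside the OSA range in both the satellite-like and the macrophage-like class.

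Cell by cell, Mt1 and Mt2 went together where both were abundant. Pearson's r of the log of their UMIs per 10000, across the cells of a library, was 0.79 to 0.85 in fibroblast-like cells, 0.70 to 0.77 in satellite-like cells and 0.62 to 0.72 in myelinating Schwann-like cells. It was 0.10 to 0.17 in endothelial-like cells, where counts are sparse. Cells of a library share its preparation and depth, so these are descriptions.

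Mt3 was concentrated in myelinating Schwann-like cells, at 1277, 1872, 2418 and 2558 CPM, with the control below each OSA library. Outside the macrophage-like class, described next, smooth muscle-like cells came second with 85.1, 79.7, 55.1 and 79.5, and there the control was above each OSA library. The median Schwann-like cell carried 7.6, 13.2, 16.1 and 18.9 Mt3 UMIs per 10000. After thinning to 2000 UMIs, 73.1%, 82.1%, 86.8% and 86.1% of these cells showed a Mt3 UMI, against 0.82% to 2.24% of endothelial-like cells. The log2 change was 0.87 ± 0.27 (edgeR adjusted p = 0.237), and without OSA replicate 3 it was 0.74 ± 0.13 (adjusted p = 2.91e-05). Without OSA replicate 1 or OSA replicate 2 the edgeR adjusted p was 0.487 and 0.9998. In myelinating Schwann-like cells 21.8% of genes had the control below every OSA library. In the same cells r of Mt1 and Mt3 across cells was 0.32, 0.43, 0.49 and 0.47. Non-myelinating Schwann-like cells had little Mt3, at 9.79, 16.7, 4.46 and 8.06.

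In macrophage-like cells Mt3 rose, and most of it came from few cells. The class held 14, 466, 364 and 2357 Mt3 UMIs, which are 9.62, 142, 146 and 205 CPM. The single control library lay below every OSA library, an order held by 26.8% of all gene-by-class tests in the 15 classes. The 95% Poisson intervals were 5.26 to 16.1 in the control and 129 to 155 in OSA replicate 1. The OSA mean was 164 ± 35.6 (SD, n = 3), 17.1 times the control, and the log2 change was 4.17 ± 0.50 (edgeR adjusted p = 0.00442, with 1.16% of 11967 genes called). The Spp1-marked subset supplied 87.3%, 83.8% and 70.9% of the class's Mt3 UMIs in OSA replicates 1, 2 and 3, from 27, 6 and 141 cells. It stood at 779, 2095 and 756 CPM there, and no control cell was kept in it. Cells with 10 or more Mt3 UMIs numbered 7, 3 and 36 in this subset, and the highest single cells carried 167, 203 and 219. The median cell of the subset held 0, 11.5 and 1.

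Among the other macrophage subsets, resident cells gave 8.64, 15.3, 7.25 and 12.2 and MHC class II cells 11.5, 13.9, 11.5 and 10.9, with the control inside the OSA range in both. The remaining clusters of the class held 41, 44 and 668 Mt3 UMIs in the OSA libraries, 28.3% of the class in OSA replicate 3, and 0 in 7 control cells. Of these the cluster led by Lyz2, Cybb and Acp5, with 58, 27 and 427 OSA cells and no control cell, gave 24.4, 161.8 and 136.6. With the Spp1-marked subset left out, an alternative chosen after seeing the data, the class stood at 9.62, 21.3, 25.1 and 74.1. The OSA effect on Mt3 was larger in macrophage-like than in myelinating Schwann-like cells by a log2 difference of 3.30 ± 0.36 (edgeR adjusted p = 2.43e-12, with 3.29% of 13688 genes called).

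One barcode bore on the control value. Among 3 control barcodes of the class that were called doublets, 1 fell in the cluster of the Spp1-marked subset and carried 109 Mt3 UMIs of its 17674 UMIs, with 11 of Cd68, 1 of Spp1 and 0 of Gpnmb. With called doublets kept, the control therefore held 123 Mt3 UMIs, or 82.7 CPM, against 143, 145 and 204. The log2 change was then 1.07 ± 0.37 (edgeR adjusted p = 0.197). The summed level of the 8 myelinating Schwann markers in the Spp1-marked subset was 218, 151 and 118 CPM in OSA replicates 1, 2 and 3, against 146 in all control macrophage-like cells. Of these markers 1, 2 and 0 were at 0 in the subset. The part of Schwann cell RNA in these cells was not tested.

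**Figure D4:**
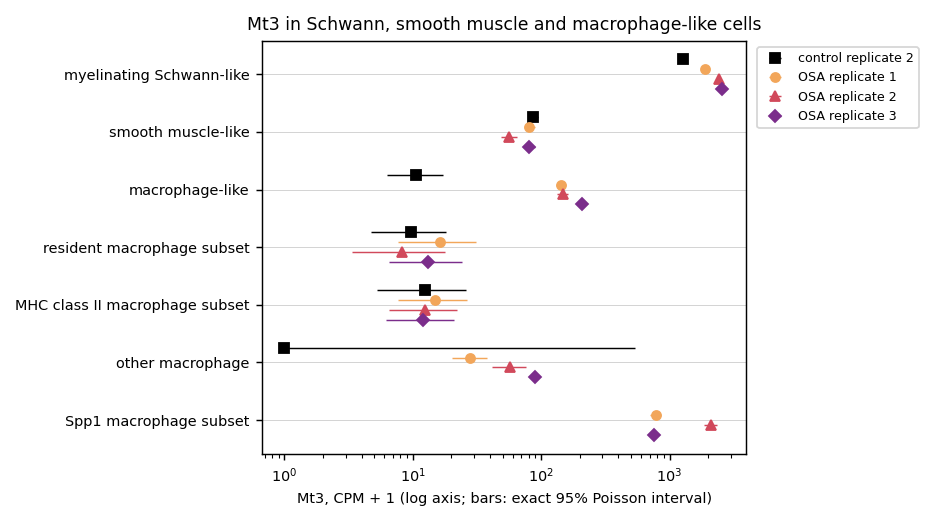
Mt3 (CPM plus 1, log axis) in myelinating Schwann-like, smooth muscle-like and macrophage-like cells and in the macrophage subsets, with 1 point per library and exact 95% Poisson intervals for counting error. The Spp1-marked subset stands at 756 to 2095 CPM in the OSA libraries and holds no kept control cell, while resident and MHC class II subsets reach at most 15.3.

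Slc39a14, the importer, stood highest in satellite-like cells, at 103, 90.4, 133 and 107 CPM, where the control lay inside the OSA range. Lymphatic endothelial-like cells followed with 53.5, 72, 85.1 and 72. Endothelial-like cells varied little, at 40.5, 41.2, 41.5 and 42.5. Neutrophil-like cells, at 0, 4.84, 3.89 and 10.1, and myelinating Schwann-like cells, at 11.5, 9.47, 10.1 and 12.8, had little. Over its 13 tested classes the median log2 change was 0.10, against 0.91 for Mt1 over 15.

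Slc39a14 had an unadjusted p under 0.05 in 2 classes, fibroblast-like and macrophage-like cells. In perineurial-like cells the log2 change was 1.04 ± 0.64, from 25.1, 36.6, 25.5 and 91 CPM. Fibroblast-like cells gave 30.7, 71.3, 57.1 and 86.9, an OSA mean of 71.8 ± 14.9 (SD, n = 3), with every OSA library above the control. The log2 change was 1.29 ± 0.31 (edgeR adjusted p = 0.508). In DESeq2 it was 1.29 ± 0.33 (adjusted p = 0.0394), and without OSA replicate 1 or OSA replicate 2 edgeR gave adjusted p of 0.00194 and 0.00464, and without OSA replicate 3 it gave 0.118. In this class 24.7% of genes had the control below every OSA library. The cluster led by Saa3, an acute-phase gene, held 5 control cells and 78, 20 and 738 OSA cells and stood at 0, 210, 96 and 128 CPM. Without it, an alternative chosen after seeing the data, the change was 1.02 ± 0.24 (edgeR adjusted p = 0.123, with 0.109% of genes called). The other clusters each had the control lowest, at 28.2, 41.7, 40.2 and 43.2 for the Smoc2-led cluster, 34.8, 75.3, 76.4 and 91.4 for the Smpd3-led cluster and 30.8, 80.4, 71.1 and 67.6 for the Sfrp4-led cluster.

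MHC class II macrophage-like cells showed Slc39a14 at 28.8, 87.3, 88.3 and 80.7, from 15, 63, 77 and 74 UMIs. The OSA mean was 85.4 ± 4.1 (SD, n = 3), and the log2 change of 1.52 ± 0.39 did not pass (edgeR adjusted p = 0.0757, with 0.473% of 8462 genes called). Without OSA replicate 1 the adjusted p was 0.0403, without OSA replicate 3 it was 0.0323, and without OSA replicate 2 it was 0.0536. The whole macrophage-like class gave 19.9, 36.8, 60.1 and 30.8 and a change of 1.11 ± 0.42 (adjusted p = 0.213). Its cluster led by Retnla and Ear2, with 25, 16, 41 and 24 cells, stood at 26.3, 179.9, 109.3 and 92.5.

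**Figure D5:**
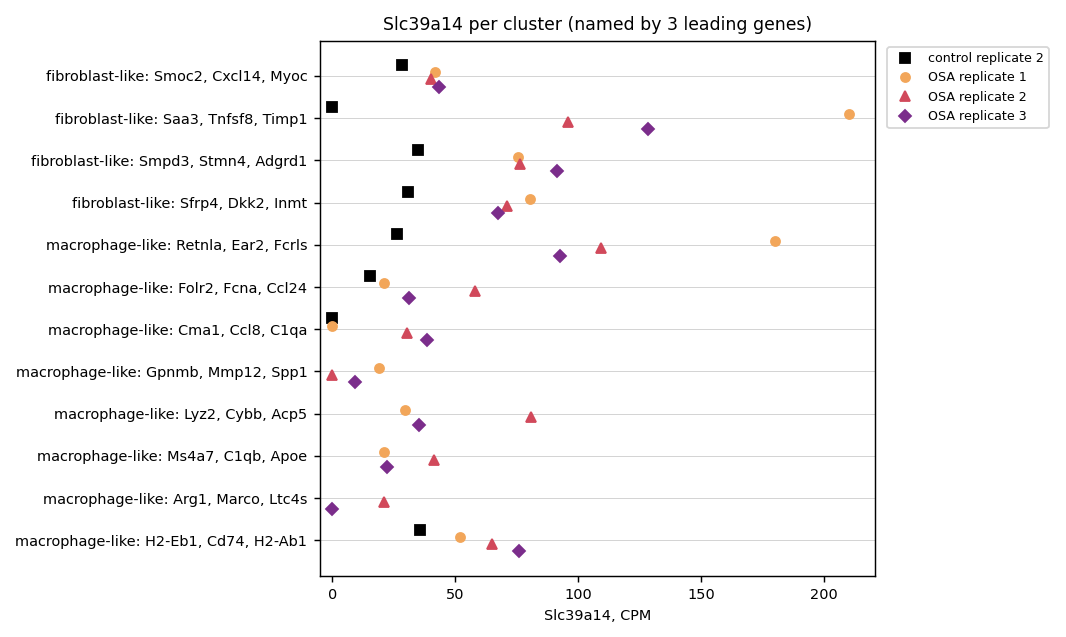
Slc39a14 (CPM) in the clusters of the fibroblast-like and macrophage-like classes, each named by 3 leading genes, with 1 point per library that holds cells of it. The control point is lowest in each of the 4 fibroblast clusters, and the Saa3-led cluster, with 5 control cells, reaches 210 in OSA replicate 1.

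Slc30a1 and Mtf1 were called in no class. By the mean over the 4 libraries Slc30a1 was highest in endothelial-like cells, at 31.9, 37, 31.5 and 34.1, with a range that overlapped that of myelinating Schwann-like cells. In fibroblast-like cells Slc30a1 stood at 7.45, 8.88, 8.89 and 8.75. In macrophage-like cells it gave 13.1, 20.4, 12.8 and 24.3, the control inside the OSA range. Over 12 tested classes its median log2 change was 0.11, and the smallest adjusted p in edgeR was 0.535. An unadjusted p under 0.05 was reached in 0 classes by Slc30a1 and by Mtf1, and DESeq2 called neither gene in any class. Among the tested classes Mtf1 had its highest mean over the 4 libraries in pericyte-like cells, at 42.9, 36, 34.3 and 32.3. The control lay above the OSA libraries there, and the log2 change was -0.27 ± 0.19 (edgeR adjusted p = 0.985). Endothelial-like cells came next with 33.6, 32, 32 and 33.2, and the ranges of the 2 classes overlapped. The median log2 change of Mtf1 over 13 classes was -0.06, with a smallest adjusted p of 0.878 in edgeR. At these levels the fits carried SEs of 0.17 to 1.41, which hold the spread between the OSA libraries as well as counting error. Differences larger than these SEs can also be missed. On simulated data the test called 8.33% of genes changed 2-fold in the macrophage-like class and 13.6% in the T and NK-like class.

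Of the other zinc carriers, edgeR called none in the 15 classes, where 0.4% of all gene-by-class tests were called. The SLC30 exporters, Slc30a1 among them, gave 71 gene-by-class tests, and the SLC39 importers, Slc39a14 among them, gave 124. An unadjusted p under 0.05 in edgeR was found in 2 exporter and 6 importer tests, against 6.63% of all gene-by-class tests. Of these 6 tests, 2 were those of Slc39a14. DESeq2's calls were read for the 6 members alone. Of the exporter tests 41 were higher and 30 lower and of the importer tests 79 and 45, against 85643 and 77722 of all gene-by-class tests. The SLC30 genes with most UMIs were Slc30a9, at 25.8 to 36.9 CPM over all cells, Slc30a5, at 22.1 to 33.2, Slc30a7, at 20.9 to 26.4, and Slc30a1. Of the SLC39 genes, Slc39a1 stood at 56 to 72.2, Slc39a7, which releases zinc from the endoplasmic reticulum, at 53.2 to 69.1, and Slc39a13 at 22.9 to 25.7. Slc39a8, the closest relative of Slc39a14, stayed at 0.53 to 1.11.

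Lists of genes tied to known inducers of metallothioneins were read beside the members. Among T and NK-like cells, 1 of 13 glucocorticoid targets (Zbtb16, log2 change 1.18 ± 0.31), 1 of 13 hypoxia genes (Hk2, 1.52 ± 0.38) and 2 of 10 antioxidant genes (Txn1, 1.02 ± 0.31, and Gpx1, 1.47 ± 0.32) passed, all higher, against 3.33% of all genes of the class. The median over these lists was 0.04, 0.76 and 0.22, against 0.04 over all genes of the class. Over the 15 classes 158 of 209 hypoxia tests were higher and 51 lower, against 85643 and 77722 of all gene-by-class tests. Each list repeats the same genes over classes of the same libraries, with a single control library. The tests of a list are therefore not separate observations, here and in the counts below. In edgeR 44 of the hypoxia tests had an unadjusted p under 0.05, against 6.63% of all gene-by-class tests. Antioxidant tests gave 128 higher and 59 lower, and glucocorticoid tests 93 and 98. Of the 209 hypoxia tests 3 passed higher and 2 lower, against 0.4% called among all gene-by-class tests. The others were Hk2 in perineurial-like cells (1.98 ± 0.44) and the glycolytic gene Pgk1 in macrophage-like cells (1.82 ± 0.37), both higher, and Aldoa in myofibre-like cells (-1.97 ± 0.22) and Ndrg1 in perineurial-like cells (-1.60 ± 0.38), both lower. The immediate early gene Egr1 passed lower in macrophage-like cells (-1.46 ± 0.32), where edgeR called 80 of 11967 genes lower and 59 higher. Of 212 tests of interleukin 6 and STAT3 genes, 163 were higher and 49 lower, and 56 had an unadjusted p under 0.05 in edgeR. Of the 212 tests 11 passed, all higher. Saa3 passed in macrophage-like, erythroid-like and perineurial-like cells, and Hp, an acute-phase gene, in myelinating Schwann-like and smooth muscle-like cells. The control held 0 UMIs of Saa3 in erythroid-like and perineurial-like cells and of Hp in myelinating Schwann-like cells, and at most 2 in the other calls of these genes, so no fold is given. After TMM scaling Saa3 stood at 0, 15.9, 2.90 and 32.3 CPM in erythroid-like cells and at 0, 30.5, 4.64 and 103.8 in perineurial-like cells. The Saa3-led fibroblast cluster likewise had its fewest OSA cells in OSA replicate 2 and its most in OSA replicate 3. The part of RNA from other cells in these calls was not tested. Serpina3n passed higher in lymphatic endothelial-like, smooth muscle-like and tenocyte-like cells. Of all genes 0.823% were called in smooth muscle-like, 0.0403% in lymphatic endothelial-like and 0.0869% in tenocyte-like cells. In edgeR no iron or copper gene passed in the 15 classes, with an unadjusted p under 0.05 in 15 of 188 iron and 9 of 129 copper tests. Dissociation stress genes, which include Egr1, had a median of -0.84 in macrophage-like cells, with 13 of 14 lower. In T and NK-like cells their median was -0.04, and Hspa1a passed higher there (1.26 ± 0.36). The median over all genes was 0.04 in both classes. The subsets of the macrophage-like class differed in proportion between the libraries, and the part of this composition in its values was not tested.

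Across the 60 sums of 15 classes and 4 libraries, the genes most like each member were found by Pearson's r of log2(level + 1) among 9445 genes. The sums share libraries and classes, so r is a description. Mt1 and Mt2 were each other's nearest genes (r = 0.976), followed by Serf1 (0.864 with Mt1 and 0.867 with Mt2), Htra2 for Mt1 (0.833) and Ank2 for Mt2 (0.843). Mt3 was nearest to Sec14l5 (0.854), Slc36a2 (0.842) and the myelin gene Mag (0.837). Slc39a14 was nearest to Ptgfrn (0.851), Rps27l (0.847) and Klf4 (0.810). Slc30a1 lay nearest to Plcb1 (0.860), Ybx1 (0.830) and Prag1 (0.816), and Mtf1 to Apmap (0.715), Inka1 (0.707) and Gpr146 (0.706). Among the members, Slc30a1 and Mtf1 had r = 0.587, and Mtf1 had -0.206 with Mt1.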

How the data were processed

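The deposited files hold raw UMI counts per gene and called barcode from 10x Genomics libraries. Per the file headers the matrices came from Cell Ranger 9.0.1, and the submitters' processing notes name GRCm39 and mm39. The 6 genes, the lists and the rule for named genes (the members, called genes of the lists, abundant zinc carriers and the 3 most correlated genes) were chosen with earlier results of these data known.

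Cells needed at least 300 genes, 500 UMIs and at most 20% of UMIs from mitochondrial genes, and Scrublet doublets (expected rate 0.1; 450, 497, 356 and 551 called in control replicate 2 and OSA replicates 1, 2 and 3) were left out. Leiden clusters (scanpy 1.11.5, igraph 0.11.9, Python 3.11.15; 2000 variable genes without metallothionein, SLC30 and SLC39 genes, 30 components, resolution 1) were named from 26 marker lists, at least 3 markers each. Unnamed clusters held 1132 cells. Counts were summed per library and class and tested with edgeR 4.0.16 (R 4.3.3, limma 3.58.1): filterByExpr, TMM, robust quasi-likelihood fit, Benjamini-Hochberg within a class at 0.05, two-sided. Differences between classes used a class-by-group term with the library as a block. DESeq2 1.42.0, other filters, scalings, thinning, kept doublets, zinc genes in the clustering and leaving out each OSA library were the alternatives. On simulated data the test called 13.6%, 64.4%, 80% and 88.1% of genes changed 2, 4, 8 and 16-fold among 6183 genes of the T and NK-like class, and 8.33%, 56.2%, 87.8% and 90.9% among 11488 of the macrophage-like class.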

Additional observations from a re-analysis of the deposited data

Results flagged for a closer look

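The OSA effect on 3 metallothioneins differed between macrophage-like cells and other classes by the interaction term of edgeR, which subtracts the log2 change in the other class from that in macrophage-like cells. Each of the 11 values below passed an adjusted p of 0.05 for this difference. They all use the same macrophage-like sums, so they are not separate observations. For Mt1 it was -1.08 against T and NK-like cells (adjusted p = 0.00442) and -1.14 against tenocyte-like cells (adjusted p = 0.049). For Mt2 it was -1.36 against T and NK-like cells, -1.67 against lymphatic endothelial-like cells and -1.53 against myofibre-like cells. For Mt3 it was 4.80 against T and NK-like cells, 3.60 against endothelial-like cells and 3.51 against fibroblast-like cells. Against myelinating Schwann-like cells it was 3.30, against pericyte-like cells 3.67 and against smooth muscle-like cells 4.44. With called doublets kept, 3 of these 11 still passed: Mt2 against lymphatic endothelial-like cells (-1.68, edgeR adjusted p = 0.0313) and myofibre-like cells (-1.64, adjusted p = 0.0019), and Mt3 against smooth muscle-like cells (1.36, adjusted p = 0.0173). Resident cells made up 74.4% of the macrophage-like class in the control and 9.24% in OSA replicate 3, and the part of this composition in the differences was not tested.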

How the results depend on the processing

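The depth of the small classes and the single control library limit these results. Main counts of called genes were 221 in T and NK-like and 139 in macrophage-like cells. DESeq2 gave 56 and 310, and at least 10 counts in every library gave 69 and 75. For macrophage-like cells no low-count filter gave 783, thinning to equal totals 303 and zinc genes among the clustering genes 19. Leaving out each OSA library gave 185 to 247 and 131 to 1290, with 1290 without OSA replicate 2 and 338 without OSA replicate 3. The 3 called member tests became 13 with no filter, 1 with at least 10 counts, 6 with thinning and 0 with called doublets kept in edgeR, and 5 to 14 on leaving out each OSA library (14 without OSA replicate 1, 5 without 2, 7 without 3). The 11 called differences between classes became 4 with doublets kept and 16 to 28 on leaving out each OSA library (19 without OSA replicate 1, 28 without OSA replicate 2). Mt3 in satellite-like cells had a log2 change of 0.57, and leaving out each OSA library gave -0.012 (reversed, without OSA replicate 2) to 0.84 (without OSA replicate 1). The cause was not tested. For single members, only changes larger than their SE in the main setting were followed through the alternatives. Of their values, 429 kept direction and side of the threshold, 39 passed it newly, 9 lost it and 1 reversed. Changes smaller than their SE, which reverse most easily, were left out, so these counts do not measure how stable the direction is over all member tests. Mt3 in macrophage-like cells lost its call only with doublets kept. No paired analysis was possible because only replicate number 2 has a matrix in both groups.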

Other observations

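Mt4, the metallothionein of stratified epithelia, ranged from 0.14 to 45.1 CPM over all cells of the 4 libraries. Epithelial-like cells numbered 8 in control replicate 2 and 27, 1 and 50 in OSA replicates 1, 2 and 3, too few for a test. Mt3 was seen in these cells too, at 224 CPM (117 UMIs) in OSA replicate 1 and 27.6 (28 UMIs) in OSA replicate 3, and at 0 in the control. In dendritic-like cells Mt1 stood at 4692 in the control, from 12 cells, and at 2417 to 2746 in the OSA libraries, so the control was highest there. Slc39a4, a zinc importer, had its highest class level in neutrophil-like cells, at 9.03 to 51.8 CPM.

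The number of barcodes per library, known for all 6 libraries, was higher by 1011.7 in the OSA group on average (exact two-sided permutation test, p = 0.4, where the smallest possible p is 0.1).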
